A study of Mus musculus with 6 samples.

Results

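The plasminogen activation system was described here by 6 genes in RNA sequencing of a mouse sarcoma line, chosen by name from the 55471 genes of the count table: the activators Plat and Plau, the receptor Plaur, the inhibitors Serpinb2 and Serpine2, and the endocytic receptor Lrp1. All 6 passed the filter on low counts, among 13044 genes that did. The cells were cultured undifferentiated pleomorphic sarcoma (UPS) cells, a soft-tissue tumour type, and all 6 libraries were labelled as metastatic cells. Control libraries (genotype WT, tag AAV2 in the title) and knockout libraries (genotype Setd1a Knock Out, with a number in place of that tag) numbered 3 each, and no label says what the tags mean, whether the knockout was 1 clone or a pool, or whether replicates were separate cultures. The tags divide the libraries as the genotype does, so anything they mark cannot be told apart from the knockout. The p-values reflect only the spread between these libraries, which may be technical.

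Plasminogen is an inactive precursor of the protease plasmin, which dissolves fibrin and cuts matrix proteins and growth factor precursors. Tissue plasminogen activator, encoded by Plat, and urokinase, encoded by Plau, cut plasminogen into plasmin; urokinase does so mostly on the cell surface, held by the receptor uPAR, which Plaur encodes. Serpins stop the activators by forming covalent complexes with them, and LRP1 takes such complexes into the cell. In tumours the system is known for proteolysis around invading cells. Setd1a, the targeted gene, encodes a methyltransferase that acts on histone H3 at active promoters.

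Library totals lay between 17749533 and 18272622 counts. Levels are given in CPM, counts scaled to a common library size, for comparisons between libraries, and in TPM, which also divides by exonic length, for comparisons between genes. Setd1a RNA held 71.0, 75.3 and 73.5 CPM in control replicates 1, 2 and 3 and 53.2, 68.7 and 56.3 CPM in knockout libraries, so the transcript remained, at lower levels in each knockout library than in any control. Its log2 change of -0.30 ± 0.12 (SE) had an adjusted p of 0.426 in edgeR, and 0.0913 when libraries were paired by replicate number. Of its exonic bases, 52.3% are shared with other annotated genes, and a count per gene does not show whether the reading frame was disrupted. Mesenchymal markers were high, with 12 genes summing to between 8924 and 9376 CPM in control libraries and between 7663 and 8884 CPM in knockout libraries, led by Vim. In bulk RNA, fewer cells that express a gene and less RNA per cell cannot be told apart.

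RefSeq promoter sequences on GRCm38.p6 were matched for 4 of the 6 genes (Plaur, Serpinb2, Serpine2 and Lrp1) and not for Plat and Plau. Serpinb2 RNA passed the paired test described below (edgeR adjusted p = 0.0368) but not the test without pairing (0.297). Plaur and Serpine2 RNA passed neither. Any link between promoter and RNA change was not tested. The 250 bases before the start are shown for Serpinb2, Plaur and Serpine2, to show how unlike these promoters are. They lie at chr1:107511173-107511422 on the plus strand, chr7:24462233-24462482 on the plus strand and chr1:79858666-79858915 on the minus strand, and run 5′ to 3′ with every motif match in capitals.
Serpinb2: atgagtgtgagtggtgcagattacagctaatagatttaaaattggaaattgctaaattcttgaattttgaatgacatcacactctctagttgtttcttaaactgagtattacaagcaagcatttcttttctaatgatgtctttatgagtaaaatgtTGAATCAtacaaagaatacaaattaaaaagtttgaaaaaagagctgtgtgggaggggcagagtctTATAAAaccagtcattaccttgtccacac
Plaur: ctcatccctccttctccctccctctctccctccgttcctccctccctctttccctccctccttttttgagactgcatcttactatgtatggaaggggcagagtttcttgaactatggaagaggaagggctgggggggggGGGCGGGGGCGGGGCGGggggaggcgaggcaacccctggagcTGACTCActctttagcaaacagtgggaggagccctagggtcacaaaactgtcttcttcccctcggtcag
Serpine2: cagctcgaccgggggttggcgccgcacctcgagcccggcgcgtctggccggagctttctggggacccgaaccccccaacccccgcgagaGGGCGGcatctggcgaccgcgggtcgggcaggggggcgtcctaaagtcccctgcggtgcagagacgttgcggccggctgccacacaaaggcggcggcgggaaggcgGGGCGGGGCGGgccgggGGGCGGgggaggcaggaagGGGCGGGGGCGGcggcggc
Both strands were searched for the AP-1 motif, TGANTCA, and for the core of the cyclic AMP response element, TGACG. The search also took the GC box, GGGCGG, whose matches may overlap each other. The last motif was the TATA box, TATAAA. The Serpinb2 window held 0 CpG dinucleotides, a GC content of 32.4%, 1 AP-1 match (TGAATCA, bases 94 to 88 before the start) and 1 TATA box (bases 29 to 24 before the start). The window before a second RefSeq start of Serpinb2, further downstream, held 3 CpG and the same matches. The Plaur window held 6 CpG, 1 AP-1 match (TGACTCA, bases 69 to 63 before the start) and 3 GC boxes in 1 unbroken run. The Serpine2 window was the richest in CpG of these, with 34 and a GC content of 78.8%, and held 6 GC boxes and neither an AP-1 match nor a TATA box; this RefSeq start lies inside the span GENCODE gives the gene. The Lrp1 window held 13 CpG and 1 GC box. Over 32851 windows of the same length, 6.75% held the AP-1 motif, 17.8% the cyclic AMP element core, which none of the members' windows held, 32.7% a GC box and 12.4% a TATA box. The CpG content relative to base composition was 0 for the upstream Serpinb2 window, 0.270 for Plaur, 0.747 for Lrp1 and 0.912 for Serpine2, beside a median of 0.373 over all windows.

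The comparison asked how RNA of these genes differed with the Setd1a knockout. An edgeR quasi-likelihood test compared libraries of the same replicate number (the paired test). It called 2 of the 6 genes higher in the knockout and 0 lower. These were the activator gene Plat, by 1.37-fold, and the inhibitor gene Serpinb2, by 1.53-fold. The paired test called 2.28% of all genes at an adjusted p under 0.05, 1.43% higher and 0.851% lower. Without pair 3 it called 0 genes in either direction. Without pairing, which was the main test as planned, edgeR called 0 of the 6 and 0% of all genes. At an unadjusted p under 0.05 it held 2 of the 6, Plat and Serpinb2, both higher, beside 10.0% of all genes (5.50% higher and 4.51% lower). DESeq2 without pairing called 0 of the 6 and 0.935% of all genes (0.636% higher and 0.299% lower), with adjusted p of 0.194 for Plat and 0.0731 for Serpinb2. The same 2 genes, of the 6, had knockout libraries that all lay above the controls, as did 7.49% of all genes, and 0 had knockout libraries that all lay below, as did 7.77% of all genes (15.3% in either direction). The median log2 change of the 6 genes was 0.16 in the paired test, beside -0.00057 for all genes tested. The pairing rests on the data, not on the labels: deviations of libraries with the same number were correlated between 0.150 and 0.464. The paired adjusted p-values come from these same data and do not account for that choice, so they may be too small.

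**Figure D1:**
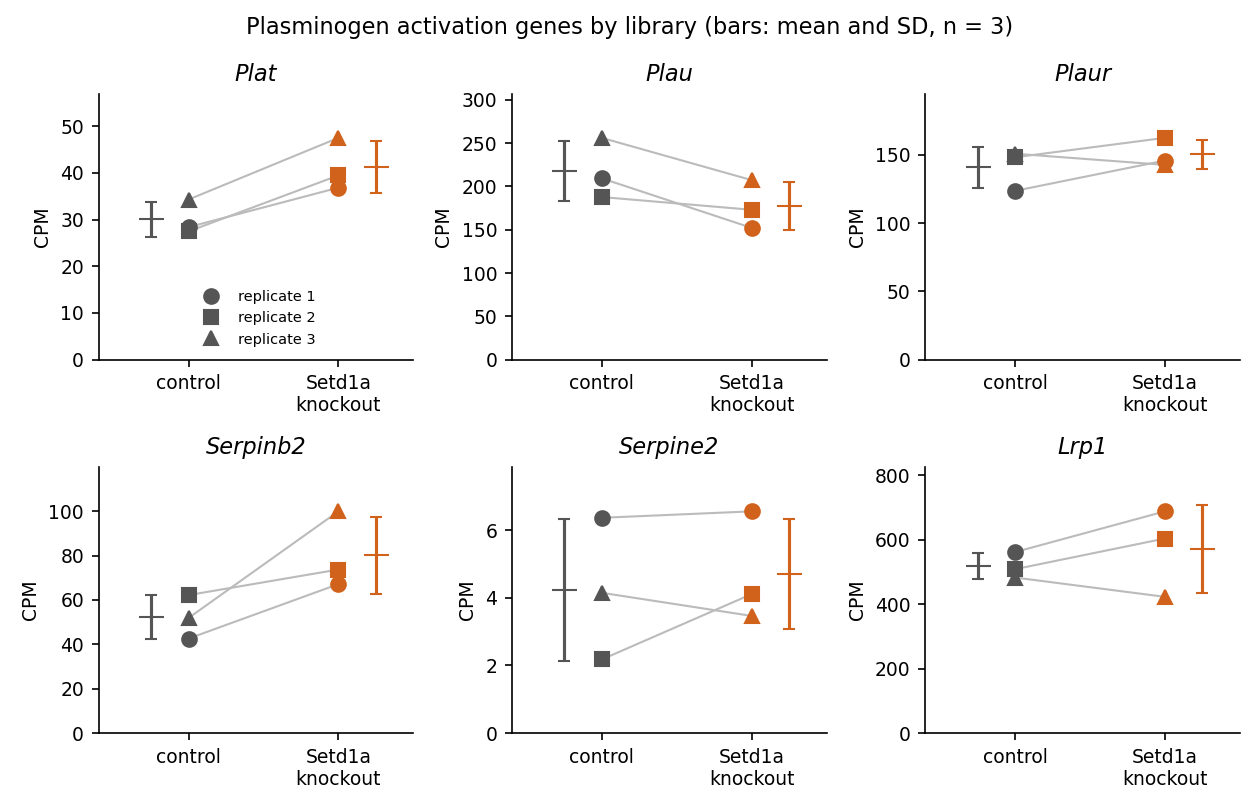
CPM of the 6 genes in each library, controls in grey and knockouts in orange. Symbols mark the replicate number, lines join libraries of the same number, and bars beside the points give the mean and SD (n = 3). Plat and Serpinb2 were above their control partner in every pair without overlap of the groups, and Plau was below its partner in every pair with overlap.

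Plat encodes tissue plasminogen activator, the activator best known for clearing fibrin (ENSMUSG00000031538, chromosome 8, 22757727 to 22782844, plus strand, 13 exonic blocks). Its level was 28.4, 27.5 and 34.3 CPM in control replicates 1, 2 and 3 and 36.8, 39.5 and 47.5 CPM in knockout replicates 1, 2 and 3. The lowest knockout library lay just above the highest control, and replicate 3 was the highest library of each group. The group levels were 30.1 ± 3.71 and 41.3 ± 5.56 CPM (SD, n = 3), and an exact permutation test, two-sided, gave p = 0.1, which is as low as 3 libraries a group allow. Within pairs the ratio of knockout to control was 1.30, 1.44 and 1.39, a narrower spread than that of the levels. The log2 change was 0.46 ± 0.09 (SE) in the paired edgeR test, with an adjusted p of 0.0397, and 0.46 ± 0.14 (SE) without pairing, with an adjusted p of 0.328. The paired call was lost without pair 2 (adjusted p = 0.204) and without pair 3 (0.0904), while the log2 change stayed at 0.44 in both.

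Plau encodes urokinase (ENSMUSG00000021822, chromosome 14, 20836660 to 20843385, plus strand, 11 exonic blocks), and its levels pointed the other way. It held 209, 188 and 256 CPM in control libraries and 152, 173 and 207 CPM in knockout libraries. Each knockout library was below its control partner, but the groups overlapped: knockout replicate 3 was above control replicate 2. The group levels were 218 ± 34.9 and 177 ± 27.8 CPM (SD, n = 3; p = 0.2 in an exact permutation test, two-sided), and the ratios within pairs were 0.727, 0.922 and 0.810. The paired log2 change of -0.29 ± 0.08 (SE) did not pass the test (adjusted p = 0.0906 in edgeR, 0.548 without pairing). Its paired 95% interval ran from 0.717-fold to 0.927-fold. A ratio on the same side of 1 in all 3 pairs was found for 3 of the 6 genes (Plat, Plau and Serpinb2) and for 41.5% of all genes: 2 of the 6 were higher in every pair, beside 19.9% of all genes, and 1 was lower in every pair, beside 21.6%.

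Plaur encodes uPAR, the membrane-anchored receptor that holds urokinase at the cell surface (ENSMUSG00000046223, chromosome 7, 24462484 to 24475968, plus strand). It held 124, 148 and 151 CPM in control libraries and 146, 162 and 143 CPM in knockout libraries. The groups overlapped, and only control replicate 1 stood below the other 5 libraries. Its log2 change of 0.10 ± 0.08 (SE) did not pass the paired edgeR test (adjusted p = 0.576), with a 95% interval from 0.943-fold to 1.21-fold. Plaur had the smallest spread of the 6 genes, with a ratio of 1.31 between its highest and lowest library.

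**Figure D2:**
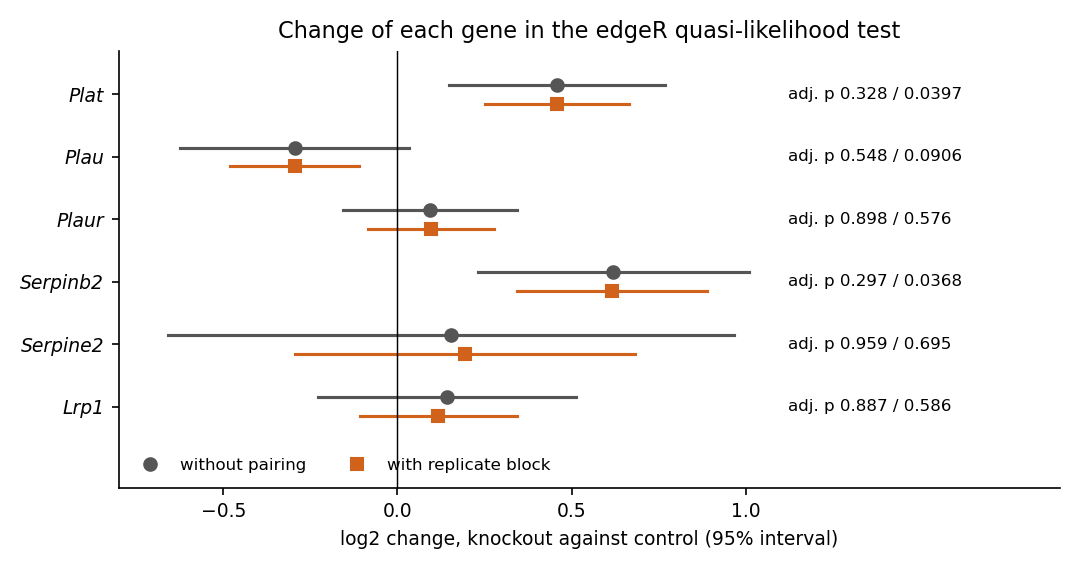
Log2 change of each gene, knockout against control, with its 95% interval, in the edgeR test without pairing (grey circles) and with the replicate number as a block (orange squares). Adjusted p-values over all genes are printed at the right, without and with the block; with it, Plat (0.0397) and Serpinb2 (0.0368) lay under 0.05.

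Serpinb2 encodes plasminogen activator inhibitor 2, a serpin that inhibits urokinase and is kept largely inside the cell (ENSMUSG00000062345, chromosome 1, 107511423 to 107535478, plus strand). Its level was 42.6, 62.2 and 51.9 CPM in control libraries and 67.1, 73.7 and 99.9 CPM in knockout libraries. Every knockout library was above every control, and knockout replicate 3 stood apart at the top. The group levels were 52.2 ± 9.80 and 80.2 ± 17.3 CPM (SD, n = 3; p = 0.1 in an exact permutation test, two-sided). The ratios within pairs were 1.58, 1.19 and 1.93, so the size of the difference varied more between pairs than for Plat. The log2 change was 0.62 ± 0.12 (SE, adjusted p = 0.0368) in the paired edgeR test and 0.62 ± 0.18 (SE, adjusted p = 0.297) without pairing. Without pair 3, the one with the largest ratio, the paired log2 change was 0.44 and the adjusted p 0.0984. That fit called 0 genes in all, so the loss of the call is not particular to Serpinb2. Of its exonic bases, 12.4% are shared with Serpinb10, which held 4 counts in all libraries together.

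Serpine2 encodes protease nexin 1, a secreted serpin that inhibits thrombin as well as both activators (ENSMUSG00000026249, chromosome 1, 79794197 to 79861180, minus strand). It was the least abundant of the 6, at 6.36, 2.18 and 4.15 CPM in control libraries and 6.55, 4.11 and 3.46 CPM in knockout libraries. The groups overlapped in part: control replicate 2 lay below every knockout library and knockout replicate 1 above every control. Replicate 1 was the highest library of each group. It had 39 to 119 counts per library. The exact Poisson 95% interval, which covers counting error only, ran from 1.55 to 2.98 CPM for control replicate 2 and from 5.25 to 7.64 CPM for control replicate 1. The paired log2 change of 0.19 ± 0.22 (SE) did not pass the edgeR test (adjusted p = 0.695), and its 95% interval, from 0.816-fold to 1.60-fold, includes changes as large as those of Plat and Serpinb2.

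Lrp1 encodes a large endocytic receptor of the LDL receptor family that clears complexes of activators with serpins (ENSMUSG00000040249, chromosome 10, 127538161 to 127621148, minus strand, 88 exonic blocks). It held 562, 509 and 483 CPM in control libraries and 688, 604 and 423 CPM in knockout libraries. Knockout replicates 1 and 2 were above all controls and knockout replicate 3 was below all of them. The ratio within pairs was 1.23, 1.19 and 0.876. The coefficient of variation was 7.77% in the controls and 23.7% in the knockouts. The paired log2 change was 0.12 ± 0.10 (SE, adjusted p = 0.586 in edgeR), and the log2 change without pairing moved from 0.14 to -0.0069 when knockout replicate 1 was left out and to 0.32 when knockout replicate 3 was.

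**Figure D3:**
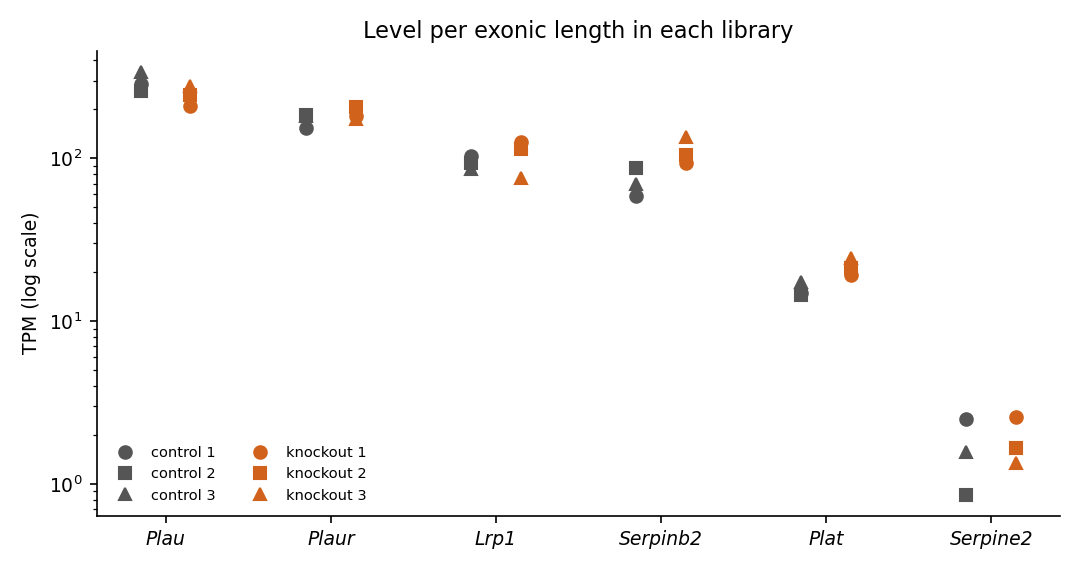
TPM of the 6 genes in each library on a log scale, ordered by control level, controls in grey and knockouts in orange, with symbols for the replicate number. Plau and Plaur were the most abundant per length and Serpine2, between 0.860 and 2.58 TPM, the least.

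Per exonic length, urokinase and its receptor were the most abundant transcripts of the 6. In the controls the mean level was 295 ± 40.7 TPM for Plau, 173 ± 17.3 for Plaur, 94.2 ± 8.71 for Lrp1, 71.6 ± 14.0 for Serpinb2, 15.5 ± 1.55 for Plat and 1.64 ± 0.82 for Serpine2 (SD, n = 3). In the knockouts the means were 244 ± 35.0, 187 ± 17.0, 105 ± 26.1, 111 ± 22.1, 21.5 ± 2.56 and 1.85 ± 0.65 TPM in the same order. Only Lrp1 and Serpinb2, neighbours in this order, overlapped in level, in both groups; between Plau and Plaur in the knockouts the gap was narrow, with the lowest Plau library at 209 TPM and the highest Plaur library at 206 TPM. Averaged over all libraries, Plau was above 95.9% of tested genes in TPM, Plaur above 93.3%, Lrp1 above 86.9%, Serpinb2 above 85.4%, Plat above 50.4% and Serpine2 above 11.6%. Plg, which encodes plasminogen itself, had 0 counts in every library, so the activators' substrate was not detected as a transcript of these cells.

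Plat and Plau pointed in opposite directions, so the balance of the activators was set out library by library. Within a library, Plau exceeded Plat by 19.4, 18.0 and 19.7 times in the controls and by 10.9, 11.6 and 11.5 times in the knockouts, in TPM. The groups did not overlap, and Plat made up 5.00% ± 0.23 of the summed activator TPM in control libraries and 8.13% ± 0.25 in knockout libraries (SD, n = 3). The size of these ratios and shares depends on the length used, the union of annotated exons, at 6241 bases for Plat and 2367 for Plau. In CPM, which uses no length, the control means were 30.1 for Plat and 218 for Plau. The ratio of Plau to its inhibitor Serpinb2 was 4.87, 2.99 and 4.89 in the controls and 2.25, 2.33 and 2.06 in the knockouts. The ratio of Plau to its receptor Plaur was 1.87, 1.40 and 1.88 in the controls and 1.15, 1.18 and 1.61 in the knockouts, with overlap. These ratios were formed after the values had been seen and carry no test. Groups that do not overlap were common for such ratios: 49.7% of tested genes gave a ratio to Plat without overlap, and 54.3% a ratio to Serpinb2 without overlap. Against Plat, the shift of Plau was 0.75 on the log2 scale, beside a median of 0.46 for all other genes, and larger than that of 90.7% of them. Plat is common to all of these ratios, so the rank reflects only the change of Plau, which did not pass the test.

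**Figure D4:**
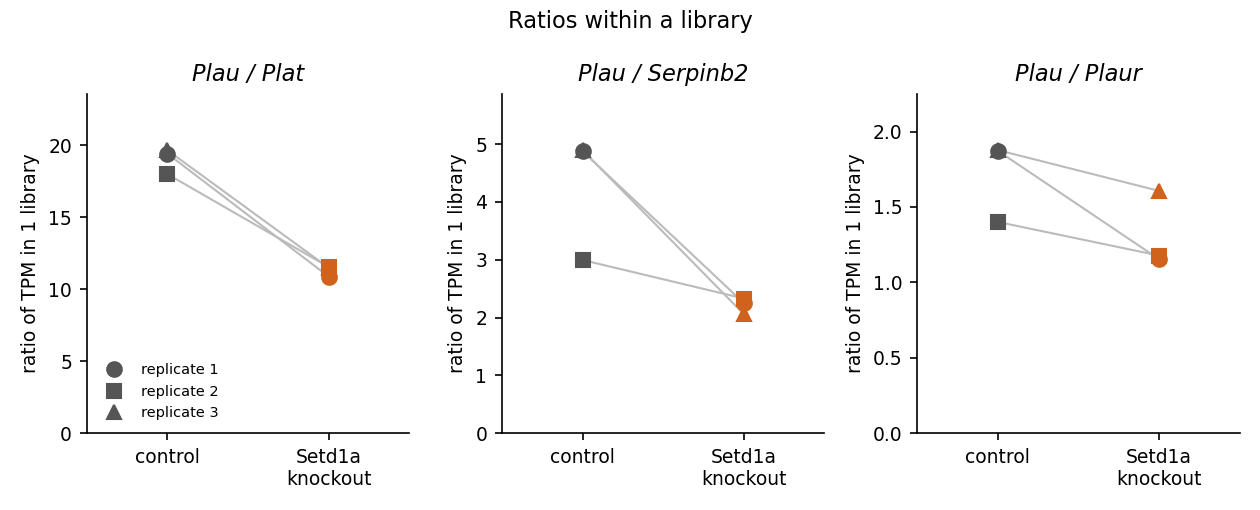
Ratio of Plau to Plat, to Serpinb2 and to Plaur in TPM within each library, controls in grey and knockouts in orange, with symbols and lines for the replicate number. The ratio to Plat lay between 18.0 and 19.7 in the controls and between 10.9 and 11.6 in the knockouts.

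The genes whose pattern over the 6 libraries was most like that of each member were found by Pearson correlation of logged CPM among 9530 genes with a mean of at least 5 CPM. With so few libraries many genes reach high values: between 7 (for Serpine2) and 90 (for Plau) exceeded 0.95. For Plat they were the RNA polymerase II subunit gene Polr2g (r = 0.999), Synpo, which encodes the actin-associated protein synaptopodin (0.993), and the kinase gene Taok3 (0.987). For Plau, Bloc1s6 (0.997) and Taz on chromosome X (0.994) were among them. Serpinb2 was most like Tmem9b (0.987), the endotoxin receptor gene Tlr4 (0.982) and Creb3 (0.979). Plaur was most like R3hdm4 (0.986), Eml3 (0.985) and Vash2 (0.983), Serpine2 like Zfyve26 (0.988), Bicra (0.987) and Mbd6 (0.982), and Lrp1 like Wdr20 (0.987), Nckipsd (0.986) and Rbsn (0.981). Of the genes named here for their likeness, 1 passed the paired edgeR test, Synpo, with a log2 change of 0.85 and an adjusted p of 0.0237. Among the 6 members themselves, Plat and Serpinb2 had the highest correlation (r = 0.83) and Plau and Lrp1 the lowest (-0.74); the points share their library and their group.

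The receptors of plasminogen and the partners of uPAR did not pass the test. Of 16 genes listed, 14 were tested. In the paired edgeR test 0 were higher and 0 lower, beside 1.43% and 0.851% of all genes. Their median log2 change was 0.0087, beside -0.00057 for all genes tested. The glycolytic enzyme gene Eno1, whose product also binds plasminogen at the cell surface, averaged 3083 ± 320 CPM in control libraries and 2670 ± 109 CPM in knockout libraries, with an SD over 3 libraries each and an adjusted p of 0.221. Anxa2, which encodes the annexin A2 part of a receptor shared with S100A10, averaged 1179 ± 122 and 1046 ± 109 CPM (adjusted p = 0.274). Plgrkt, which encodes a plasminogen receptor of the plasma membrane, averaged 14.8 ± 1.39 and 18.6 ± 2.06 CPM, with an adjusted p of 0.136. Every knockout library was above the controls, as for 7.49% of all genes. The integrin gene Itgav was at 195 ± 28.4 and 220 ± 32.1 CPM (adjusted p = 0.301).

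Of 10 other inhibitors of plasmin or its activators, 5 were tested. In the paired test 1 was higher and 0 lower, beside 1.43% and 0.851% of all genes. The median log2 change was 0.40, beside -0.00057 for all genes tested. By far the most abundant, Serpinb6a, averaged 393 ± 35.5 and 405 ± 33.9 CPM, with a paired log2 change of 0.044 (edgeR adjusted p = 0.817). The summed list overlapped between the groups, at 367 to 437 CPM in control libraries and 385 to 453 CPM in knockout libraries. Spint2, a membrane-bound Kunitz inhibitor of serine proteases, rose 2.36-fold, from 1.10 ± 0.12 to 2.61 ± 0.50 CPM (SD, n = 3; edgeR adjusted p = 0.0363). Its relative Spint1 averaged 1.08 ± 0.14 and 2.33 ± 0.96 CPM, with an adjusted p of 0.0631. Both were higher without overlap, as were 7.49% of all genes. Serpini1, which encodes neuroserpin, an inhibitor of tissue plasminogen activator, averaged 1.91 ± 0.41 and 2.54 ± 0.66 CPM (adjusted p = 0.313), and Serpinb8 3.68 ± 0.44 and 4.41 ± 1.06 CPM (adjusted p = 0.471). Serpina5 had 0 counts in every library.

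Few other serpins passed the filter on low counts. Of 58 such genes, 50 averaged under 1 CPM, 30 had 0 counts in every library and 8 were tested. Of those, 1 rose and 1 fell in the paired test, beside 1.43% and 0.851% of all genes. Their median log2 change was 0.15, beside -0.00057 for all genes tested. Serpinb9b, of the granzyme-inhibiting Serpinb9 group, rose 1.87-fold, from 10.4 ± 1.72 to 19.5 ± 1.88 CPM (SD, n = 3; edgeR adjusted p = 0.0184), and the gene has close paralogs, so the assignment of its counts is uncertain. Serpinb9 averaged 3.05 ± 0.42 and 4.47 ± 1.23 CPM (adjusted p = 0.146). Serpinf1, which encodes the secreted serpin PEDF, an inhibitor of vessel growth with no known protease target, fell to 0.757 of its control level, from 490 ± 99.5 to 371 ± 69.6 CPM (adjusted p = 0.0313). Its groups overlapped, and it was lower in the knockout within each pair, as were 21.6% of all genes.

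**Figure D5:**
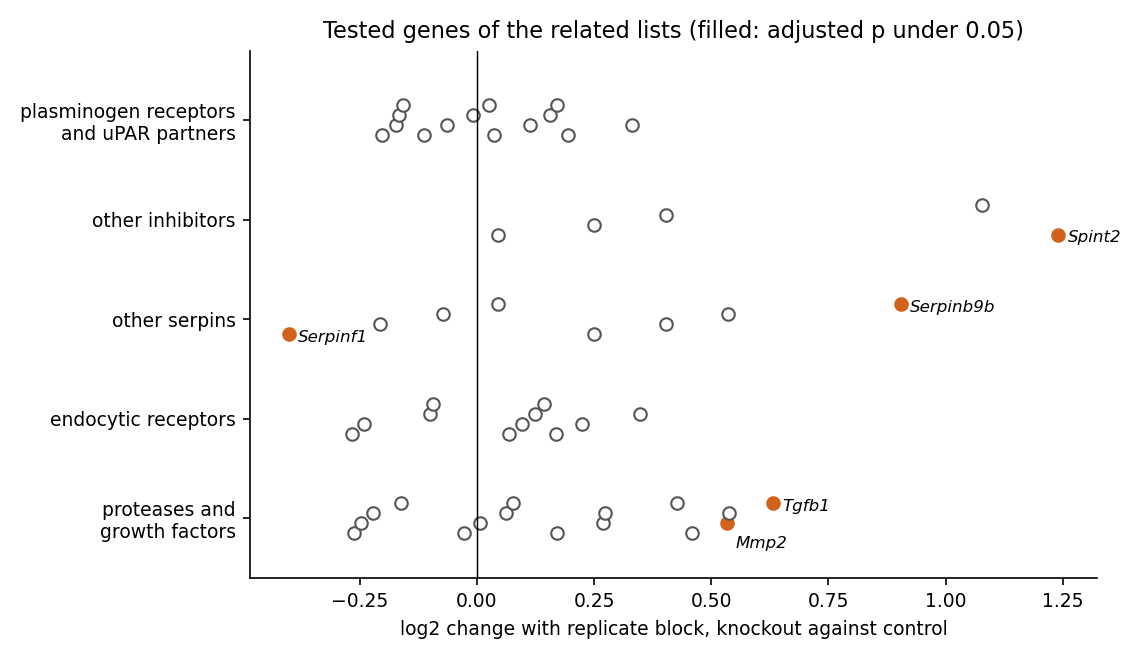
Log2 change in the paired edgeR test for each tested gene of 5 related lists; filled orange points had an adjusted p under 0.05 and are named, open points did not. Serpini1, Serpinb8 and Serpinb6a stand in both the inhibitor and the serpin lists, and positions up and down within a list carry no value.

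Among endocytic receptors beside Lrp1, 11 of 12 genes were tested. In the paired edgeR test 0 were higher and 0 lower, beside 1.43% and 0.851% of all genes. Their median log2 change was 0.095, beside -0.00057 for all genes tested. Lrp8, the apolipoprotein E receptor 2 gene, averaged 164 ± 5.00 CPM in control libraries and 138 ± 4.84 CPM in knockout libraries (SD, n = 3), with an adjusted p of 0.103. It was lower without overlap, as were 7.77% of all genes. Lrpap1, which encodes the chaperone that keeps LRP1 from binding ligands on its way to the surface, averaged 17.4 ± 1.37 and 19.0 ± 1.02 CPM (adjusted p = 0.571). Sort1 was at 4.59 ± 0.44 and 5.89 ± 1.27 CPM (adjusted p = 0.272), and Lrp10 at 105 ± 16.0 and 118 ± 18.0 CPM (adjusted p = 0.294).

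Of 21 proteases, growth factors and clotting genes linked to the activators, 16 were tested. In the paired test 2 rose and 0 fell, beside 1.43% and 0.851% of all genes. The median log2 change was 0.12, beside -0.00057 for all genes tested. Tgfb1, whose latent product plasmin can release, rose 1.55-fold, from 22.4 ± 5.04 to 34.5 ± 5.67 CPM (SD, n = 3; edgeR adjusted p = 0.0338). Mmp2, a gelatinase gene, rose 1.45-fold, from 61.5 ± 5.60 to 90.2 ± 21.2 CPM (adjusted p = 0.0289). Thbd, which encodes the thrombin receptor thrombomodulin, averaged 24.8 ± 1.82 and 34.0 ± 1.43 CPM and had an adjusted p of 0.0506. It was higher without overlap, as were 7.49% of all genes. Pdgfd, whose product urokinase can activate, averaged 6.21 ± 1.33 and 8.94 ± 0.92 CPM (adjusted p = 0.0858). All 5 genes called in these lists lost the call without pair 3, as did every other called gene. The paired adjusted p was then 0.0801 for Spint2, 0.0627 for Serpinb9b, 0.0627 for Serpinf1, 0.0747 for Tgfb1 and 0.0611 for Mmp2. Without pair 2 it was 0.143 for Spint2, 0.00272 for Serpinb9b, 0.162 for Serpinf1, 0.156 for Tgfb1 and 0.0276 for Mmp2. In edgeR without pairing none was called. The adjusted p was then 0.180 for Spint2, 0.157 for Serpinb9b, 0.470 for Serpinf1, 0.308 for Tgfb1 and 0.308 for Mmp2.

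Markers of macrophages, endothelium and epithelium, cells that can also make these proteins, overlapped between the groups when summed by list, while single markers differed. The 12 macrophage markers summed to between 13.4 and 15.5 CPM in control libraries and between 14.4 and 17.0 CPM in knockout libraries, most of it Cd14. Of the 12, 10 were under 1 CPM, and Adgre1 and Tyrobp had 0 counts. Csf1r, singled out after its values were seen, was higher in every pair, at 0.19 ± 0.13 and 0.87 ± 0.57 CPM with overlap. Fcer1g was lower on average, at 0.20 ± 0.23 and 0.073 ± 0.064 CPM with overlap. Both were too low to be tested. The 12 endothelial markers summed to between 7.52 and 8.88 CPM in control libraries and between 7.94 and 8.15 CPM in knockout libraries, with 10 of the 12 under 1 CPM and Cldn5, Robo4 and Erg at 0 counts. Within that sum, single markers moved in opposite directions without overlap of the groups, and those named here were singled out after their values were seen. Over all genes tested, 7.49% were higher and 7.77% lower without overlap. Egfl7, the most abundant, was lower in knockout libraries, at 5.52 ± 0.65 and 4.03 ± 0.81 CPM (SD, n = 3; paired edgeR adjusted p = 0.208). Cdh5 was higher, at 1.40 ± 0.49 and 1.99 ± 0.28 CPM (adjusted p = 0.382), and so was Kdr, at 0.19 ± 0.20 and 0.53 ± 0.06 CPM, too low to be tested. The 10 epithelial markers summed to between 52.9 and 91.4 CPM and between 50.2 and 95.6 CPM, led by Krt18; 7 of the 10 were under 1 CPM, and Cldn7 had 0 counts. Of these, Krt19, singled out after its values were seen, rose 1.79-fold in the paired edgeR test (adjusted p = 0.0327), from 3.82 ± 1.62 to 6.77 ± 2.63 CPM with overlap. Without pair 2 or pair 3 its adjusted p was 0.0716 and 0.0888, and in edgeR without pairing it was 0.485. Of the 4 epithelial markers tested, Krt19 was the 1 called higher, beside 1.43% of all genes. Krt18, which led the sum, went the other way. It was lower in all 3 pairs, as were 21.6% of all genes, with a paired log2 change of -0.11 (edgeR adjusted p = 0.513). Krt8 was lower in pair 1 and higher in pairs 2 and 3, with a paired log2 change of 0.27 (edgeR adjusted p = 0.401). The summed mesenchymal markers were lower in every knockout library than in any control, beside higher Plat and Serpinb2. Most of that sum was Vim, whose own groups overlapped, at 6146 ± 467 and 5429 ± 347 CPM (SD, n = 3; paired edgeR adjusted p = 0.363). Of the 11 mesenchymal markers tested, 9 had a log2 change below 0 and 2 above, and 0 passed the paired test. Those above were Dcn and Pdgfrb, both higher in all 3 pairs, as were 19.9% of all genes. Dcn averaged 6.38 ± 2.36 and 10.1 ± 2.27 CPM (adjusted p = 0.0566). Pdgfrb averaged 14.1 ± 2.85 and 15.9 ± 3.82 CPM (adjusted p = 0.484). Among those below, Col1a2, Col3a1, S100a4, Sparc and Twist1 were lower in all 3 pairs, as were 21.6% of all genes. Col3a1 averaged 296 ± 27.1 and 231 ± 52.1 CPM (adjusted p = 0.0561), and S100a4 93.8 ± 25.8 and 70.9 ± 25.8 CPM (adjusted p = 0.0574). Twist1 was lower without overlap, at 92.9 ± 5.61 and 82.3 ± 5.03 CPM (adjusted p = 0.227). The part of these markers in the differences of Plat and Serpinb2 was not tested.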

How the data were processed

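Total RNA of 6 libraries, 3 per group, was sequenced. The authors deposited raw counts of reads per Ensembl gene in 1 table, with no normalization. The tools named for it are STAR, featureCounts and DESeq, with the mm10 build, per the submitters' processing notes. Their versions, the annotation, the strand setting and the treatment of ambiguous reads are not stated in the labels. Of 55471 identifiers, 55230 matched GENCODE M21 (GRCm38, the assembly of mm10), which gave symbols, positions and exonic lengths.

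Counts were tested with edgeR 4.0.16 in R 4.3.3: TMM scaling, filterByExpr by group (0.127% or less of a library's counts removed), and the quasi-likelihood test, two-sided and unpaired, with Benjamini-Hochberg adjustment over all 13044 genes. The replicate number as a block, planned as an alternative to the unpaired main test, gave the paired test. Numbers were treated as pairs because same-number deviations from the group means correlated above 0.1 in all 3 pairs, between 0.150 and 0.464. Other pairs lay between -0.446 and 0.0531. Deviations cancel within a group for each gene, so positive same-number values push the others down, and those are no separate support. The labels state no pairing. TPM used the union of annotated exons. Logged CPM used a prior count of 2. Alternatives were DESeq2 1.42.0, limma 3.58.1, other scaling and filters, and leaving out each library or pair. The scripts were tested on simulated data. No pair of replicates agreed within sampling noise (chi-square per degree of freedom between 21.6 and 40.0).

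The members and lists were chosen with earlier results of these data known. Genes named by rule beside the members were Setd1a, up to 4 of each list with the smallest p without pairing, and the 3 genes most correlated with each member. The marker lists were outside this rule, and single markers were named after their values were seen. Plg and Serpina5 were named as undetected, Serpinb10 for its overlap with Serpinb2, and Serpinb6a as the most abundant of the inhibitor list. 1 gene of the inhibitor list, left out of the counts, and 1 of the correlated genes are not reported here. Promoters came from RefSeq; proteins were not used here.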

Additional observations from a re-analysis of the deposited data

How the results depend on the processing

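Whether Plat and Serpinb2 passed the threshold depended on the replicate block. Of 124 values of the 6 genes under the alternatives, 105 kept their direction and their side of the threshold, 15 passed the threshold only under an alternative, and 4 changed sign. The log2 change of Plat was 0.46 with the replicate block, 0.45 with RLE scaling added, 0.48 with library totals only, 0.46 with a mean of at least 5 CPM, 0.46 in DESeq2 and 0.46 in limma-voom, with adjusted p between 0.0211 and 0.0413; leaving out 1 pair gave 0.44 to 0.50. For Serpinb2 the values with the block were 0.62, 0.61, 0.64, 0.62, 0.61 and 0.62, with adjusted p between 0.00139 and 0.0478; leaving out pair 1, 2 or 3 gave 0.60, 0.82 and 0.44, with adjusted p of 0.000884, 0.00185 and 0.0984. Without the block, leaving out 1 library gave 0.34 to 0.56 for Plat, 0.43 to 0.78 for Serpinb2, -0.42 to -0.16 for Plau, 0.0062 to 0.14 for Plaur, -0.15 to 0.57 for Serpine2 and -0.0069 to 0.32 for Lrp1, none of them called. Serpine2 changed sign without control replicate 2 (-0.15), without knockout replicate 1 (-0.15) and, with the block, without pair 2 (-0.082). With the block, leaving out 1 pair gave -0.37 to -0.21 for Plau, 0.026 to 0.17 for Plaur, up to 0.40 for Serpine2 and 0.029 to 0.26 for Lrp1.

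Over all genes, edgeR without the block called 0 higher and 0 lower (718 and 588 at an unadjusted p under 0.05). No filter on low counts gave 62 and 12, DESeq2 83 and 39, limma-voom 0 and 0, and leaving out 1 library 0 to 30 higher and 0 to 1 lower. The replicate block gave 187 and 111, with RLE scaling 193 and 124, with library totals only 204 and 72, with a mean of at least 5 CPM 126 and 84, in DESeq2 157 and 157 and in limma-voom 194 and 127. Leaving out pair 1 gave 507 and 207, pair 2 140 and 54, and pair 3 0 and 0. The cause was not tested. Serpine2 fell under the filter of 5 CPM, so it has no value there.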
